A study of Homo sapiens with 24 samples.

Results

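CCDC80, CCDC114, ENO3 and MAFA are 4 of the 7223 genes listed in the nascent RNA tables of a study of the Integrator complex in DLD1 cells, an established human colorectal adenocarcinoma line. They were picked from these same tables for low control values and large rises after dTAG13, so their levels and changes are described without a test. The name given to the group, near-silent genes switched on, held for CCDC80 in the INTS8 and N211del lines. It also held for MAFA in the N211del line, though on few whole-number units, given below. The MAFA means there were 0.375 on DMSO and 5.99 on dTAG13 in batch 1, and 0 at 0 h and 4.11 at 3 h of batch 2. CCDC114 was low on control in all 3 lines and rose, but stayed low after dTAG13. Its treated means in batch 1 were 1.85, 2.27 and 1.16 in the INTS11, INTS8 and N211del lines. At 3 h of batch 2 they were 3.00 in INTS11 and 0.670 in N211del cells. The name did not hold for ENO3, whose control values of 1.94 to 4.43 lay above those of 13.5 to 22.5% of the listed genes. It also did not hold for CCDC80 in the INTS11 line, and for MAFA in the INTS11 line the 0 h and 1 h libraries overlapped. The 4 genes are therefore called by their symbols here.

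The 24 libraries were made by TT-seq, which labels RNA while it is being made and so reads out synthesis rather than the standing pool, and fall into 12 groups of 2. In batch 1, 3 lines were each given dTAG13 or the vehicle DMSO for 3 h: INTS11-dTAG DLD1, with a dTAG tag knocked in at INTS11; INTS8-dTAG DLD1, with the tag knocked in at INTS8; and INTS8-dTAG_INTS8-N211del DLD1, the INTS8-tagged line that also expresses INTS8-N211del ectopically. In batch 2 the INTS11 and N211del lines received dTAG13 for 0, 1 or 3 h, with no vehicle group. All lines carry a tagged subunit, no untagged line was analysed here, and the labels do not say whether a line is 1 clone.

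The Integrator complex binds RNA polymerase II soon after it starts on a gene, cuts the new RNA through its INTS11 endonuclease and, together with the phosphatase PP2A that INTS8 helps to hold, ends many transcripts early. dTAG13 is a small molecule that brings a tagged protein to the cell's own degradation machinery. The 4 genes are best known from other tissues. CCDC80 encodes a secreted protein bound to the extracellular matrix, and CCDC114 (RefSeq symbol ODAD1) encodes a part of the docking complex that fixes outer dynein arms to the axoneme of motile cilia. ENO3 encodes the enolase of skeletal muscle, a glycolytic enzyme, and MAFA encodes a basic leucine zipper factor that activates the insulin gene in pancreatic beta cells.

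The stretch just upstream of the annotated start is shown for the 3 genes whose promoter could be printed, since the same 3 genes were higher after dTAG13 in all 3 lines. Each is the 250 bases before a RefSeq start site (GRCh38.p14), 5′ to 3′ on the gene's strand, with capitals on matches to a short list of motifs. CCDC80 lies on the minus strand at chr3:112641144-112641393, CCDC114 on the minus strand at chr19:48321972-48322221, and ENO3 has a start 1 window on the plus strand at chr17:4950302-4950551 and a start 2 window at chr17:4950869-4951118.
CCDC80: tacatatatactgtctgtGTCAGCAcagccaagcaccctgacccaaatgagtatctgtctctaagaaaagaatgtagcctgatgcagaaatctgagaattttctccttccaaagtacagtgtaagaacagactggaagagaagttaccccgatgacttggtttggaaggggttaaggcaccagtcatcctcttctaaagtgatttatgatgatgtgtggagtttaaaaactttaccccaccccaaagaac
CCDC114: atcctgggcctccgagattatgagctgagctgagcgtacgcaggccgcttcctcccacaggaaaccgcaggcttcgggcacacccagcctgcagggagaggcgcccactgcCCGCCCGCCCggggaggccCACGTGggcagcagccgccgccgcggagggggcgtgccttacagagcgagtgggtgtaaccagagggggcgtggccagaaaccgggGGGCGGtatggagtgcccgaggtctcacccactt
ENO3 start 1: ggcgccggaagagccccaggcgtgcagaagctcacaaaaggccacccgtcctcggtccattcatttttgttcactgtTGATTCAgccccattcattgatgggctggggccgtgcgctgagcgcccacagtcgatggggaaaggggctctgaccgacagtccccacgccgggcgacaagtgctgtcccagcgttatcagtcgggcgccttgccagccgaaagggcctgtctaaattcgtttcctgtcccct
ENO3 start 2: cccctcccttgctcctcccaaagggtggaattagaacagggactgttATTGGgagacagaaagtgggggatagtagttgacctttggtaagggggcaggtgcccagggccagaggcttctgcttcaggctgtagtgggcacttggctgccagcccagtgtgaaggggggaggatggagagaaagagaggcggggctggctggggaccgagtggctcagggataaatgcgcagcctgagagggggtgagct

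These windows did not resemble each other in base composition. The CCDC80 window held 42% G and C and the CCDC114 window 70%, while those of ENO3 held 61.2% and 60%, against a median of 58% over 35116 RefSeq promoters. Both strands were searched for the TATA box (TATAAA, in 10.7% of all promoters), the CCAAT box, the GC box (GGGCGG), the AP-1 site (TGANTCA), the cAMP response element (TGACGTCA, in 1.65%) and the E-box (CACGTG) with its overlapping core for hypoxia factors (ACGTG). The search also took in TGCTGAC, a part of the site bound by MAF factors. CCDC80 held 1 TGCTGAC on the strand opposite to the gene (printed as GTCAGCA), from -232 to -226 relative to the start, a motif found in 3.43% of all promoters. CCDC114 held 3 GC boxes (GGGCGG, in 42.6% of promoters), of which 2 overlap on the other strand, and 1 E-box (CACGTG, in 6.34%) from -120 to -115, whose letters also contain ACGTG (18.5%). ENO3 held 1 AP-1 site (TGANTCA, in 6.57%) from -173 to -167 before the first start and 1 CCAAT box (32.01%) on the other strand from -203 to -199 before the second. No listed motif was common to the 3 genes; a match here is a run of letters, not a bound site.

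CCDC80, the matrix protein gene, was higher after dTAG13 in every line and at every time. In batch 1, its deposited FPKM values were 8.01 and 9.36 in INTS11 cells on dTAG13, against 1.24 and 1.56 on DMSO. In INTS8 cells they were 11.5 and 10.7 on dTAG13, against 0.338 and 0.225 on DMSO, and in N211del cells 4.92 and 4.92, against 0.158 and 0.203. The groups did not overlap in any of the 3 lines, and the INTS11 cells stood out by a control level several times that of the other lines. More RNA made per cell and more cells making it cannot be told apart in these bulk libraries.

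The log2 fold change of CCDC80, on values with 0.1 added, was 2.56 ± 0.16 (SE, n = 2 per group, as for all estimates below) in INTS11 cells, 4.89 ± 0.16 in INTS8 cells and 4.17 ± 0.16 in N211del cells. As ratios of the group means these were 6.21-fold, 39.5-fold and 27.3-fold. The wide spread of folds went with the control level rather than the treated one: the treated means were 8.68, 11.1 and 4.92, while the DMSO means were 1.40, 0.282 and 0.180. With 1 added in place of 0.1, the log2 fold changes of the INTS8 and N211del cells were 3.24 and 2.33, and that of INTS11 cells 2.01.

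In batch 2, CCDC80 in INTS11 cells read 4.59 and 4.04 at 0 h, 18.1 and 16.4 at 1 h, and 19.6 and 18.8 at 3 h. In N211del cells it read 0.111 and 0.239 at 0 h, 2.55 and 2.76 at 1 h, and 4.02 and 3.98 at 3 h. Most of the difference was in place by 1 h in both lines, and the 3 time points did not overlap in either. The log2 fold change against 0 h was 1.97 ± 0.18 at 1 h and 2.13 ± 0.18 at 3 h in INTS11 cells, and 3.36 ± 0.18 and 3.94 ± 0.18 in N211del cells; both times share the 0 h libraries. The added amount ran the other way from the fold: the 3 h mean exceeded the 0 h mean by 14.9 in INTS11 cells and by 3.83 in N211del cells. Treated INTS11 cells made CCDC80 RNA above the median listed gene at 3 h, since 64.3% of the listed genes lay below it, against 26.2% at 0 h.

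CCDC114, the cilium gene, lay below CCDC80 and ENO3 in every treated group. In batch 1 its values were 1.46 and 2.25 in INTS11 cells on dTAG13, against 0.118 and 0.394 on DMSO. They were 2.45 and 2.09 in INTS8 cells on dTAG13, against 0.316 and 0.237 on DMSO, and 0.907 and 1.42 in N211del cells, against 0.513 and 0.316. The groups did not overlap, but in N211del cells the lower treated library was less than 0.4 above the higher control library. The log2 fold change was 2.54 ± 0.42 in INTS11 cells, 2.66 ± 0.42 in INTS8 cells and 1.29 ± 0.42 in N211del cells. Multiplied by a gene length inferred from the values themselves, those of CCDC114 are whole numbers. The dTAG13 libraries held between 23 and 62 such units and the DMSO libraries between 3 and 13. With 1 added in place of 0.1 the log2 fold changes of CCDC114 were 1.18, 1.36 and 0.61 in the INTS11, INTS8 and N211del lines. The INTS11 value was 1.95 without replicate 1 of DMSO and 3.13 without replicate 2.

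CCDC114 in batch 2 read 0.518 and 0.369 at 0 h in INTS11 cells, 3.28 and 2.93 at 1 h, and 2.94 and 3.05 at 3 h. In N211del cells it read 0.195 and 0.183 at 0 h, 0.624 and 0.533 at 1 h, and 0.810 and 0.531 at 3 h. In both lines the 1 h and 3 h libraries lay above those at 0 h and overlapped each other. The log2 fold change against 0 h in INTS11 cells was 2.57 ± 0.19 at 1 h and 2.52 ± 0.19 at 3 h, and in N211del cells 1.23 ± 0.19 and 1.39 ± 0.19. With 1 added, the N211del values were 0.41 and 0.49, so that whether CCDC114 at least doubled in N211del cells depends on the added constant in both batches. CCDC114 stayed low after treatment: at 3 h of batch 2, 19.4% of the listed genes lay below it in INTS11 cells and 10.1% in N211del cells.

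ENO3, the muscle enolase gene, started higher than the other 3 in most groups and reached the level of a typical listed gene. Its batch 1 values were 14.8 and 13.4 in INTS11 cells on dTAG13, against 2.44 and 2.29 on DMSO. INTS8 cells had 30.2 and 34.4 on dTAG13, against 3.05 and 4.28 on DMSO, and N211del cells had 13.7 and 16.5, against 4.43 and 4.28. No groups overlapped, and both treated INTS8 libraries were above every other ENO3 value of batch 1. The log2 fold change was 2.53 ± 0.13 in INTS11 cells, 3.12 ± 0.13 in INTS8 cells and 1.77 ± 0.13 in N211del cells. In treated INTS8 cells 76.5% of the listed genes lay below ENO3, against 16.6% on DMSO.

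Over the time course, ENO3 in INTS11 cells read 2.55 and 1.94 at 0 h, 15.2 and 17.0 at 1 h, and 15.2 and 14.2 at 3 h. In N211del cells it read 2.90 and 3.34 at 0 h, 15.7 and 14.2 at 1 h, and 12.9 and 11.9 at 3 h. The 1 h and 3 h libraries were far above those at 0 h in both lines, and the 3 h mean was the lower of the later 2 in each. The log2 fold change against 0 h was 2.80 ± 0.12 at 1 h and 2.67 ± 0.12 at 3 h in INTS11 cells, and 2.23 ± 0.12 and 1.96 ± 0.12 in N211del cells.

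MAFA, the beta cell factor gene, is listed in batch 1 in the N211del tables and not in those used here for the INTS11 and INTS8 lines. There it read 5.99 and 5.99 on dTAG13, against 0.375 and 0.375 on DMSO. In whole-number units this is 16 and 16 against 1 and 1, a 16-fold ratio of means that rests on a single unit in each control library. In batch 2, N211del cells had MAFA listed at 0 and 0 at 0 h, 3.10 and 2.81 at 1 h, and 4.51 and 3.72 at 3 h, or 0 and 0, 11 and 10, and 17 and 14 units. No fold is given against libraries listed at 0; the 3 times did not overlap.

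In INTS11 cells MAFA behaved otherwise. It read 1.12 and 0.250 at 0 h, 1.77 and 0.232 at 1 h, and 1.27 and 1.30 at 3 h, which in units is 5 and 1, 8 and 1, and 6 and 6. The 0 h and 1 h libraries overlapped, and the log2 fold change was 0.27 ± 0.73 at 1 h and 1.08 ± 0.73 at 3 h. Leaving out 1 library turned the 1 h value to -0.63 (without the second 0 h library) or -0.98 (without the first 1 h library), so no direction is given for it.

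**Figure D1:**
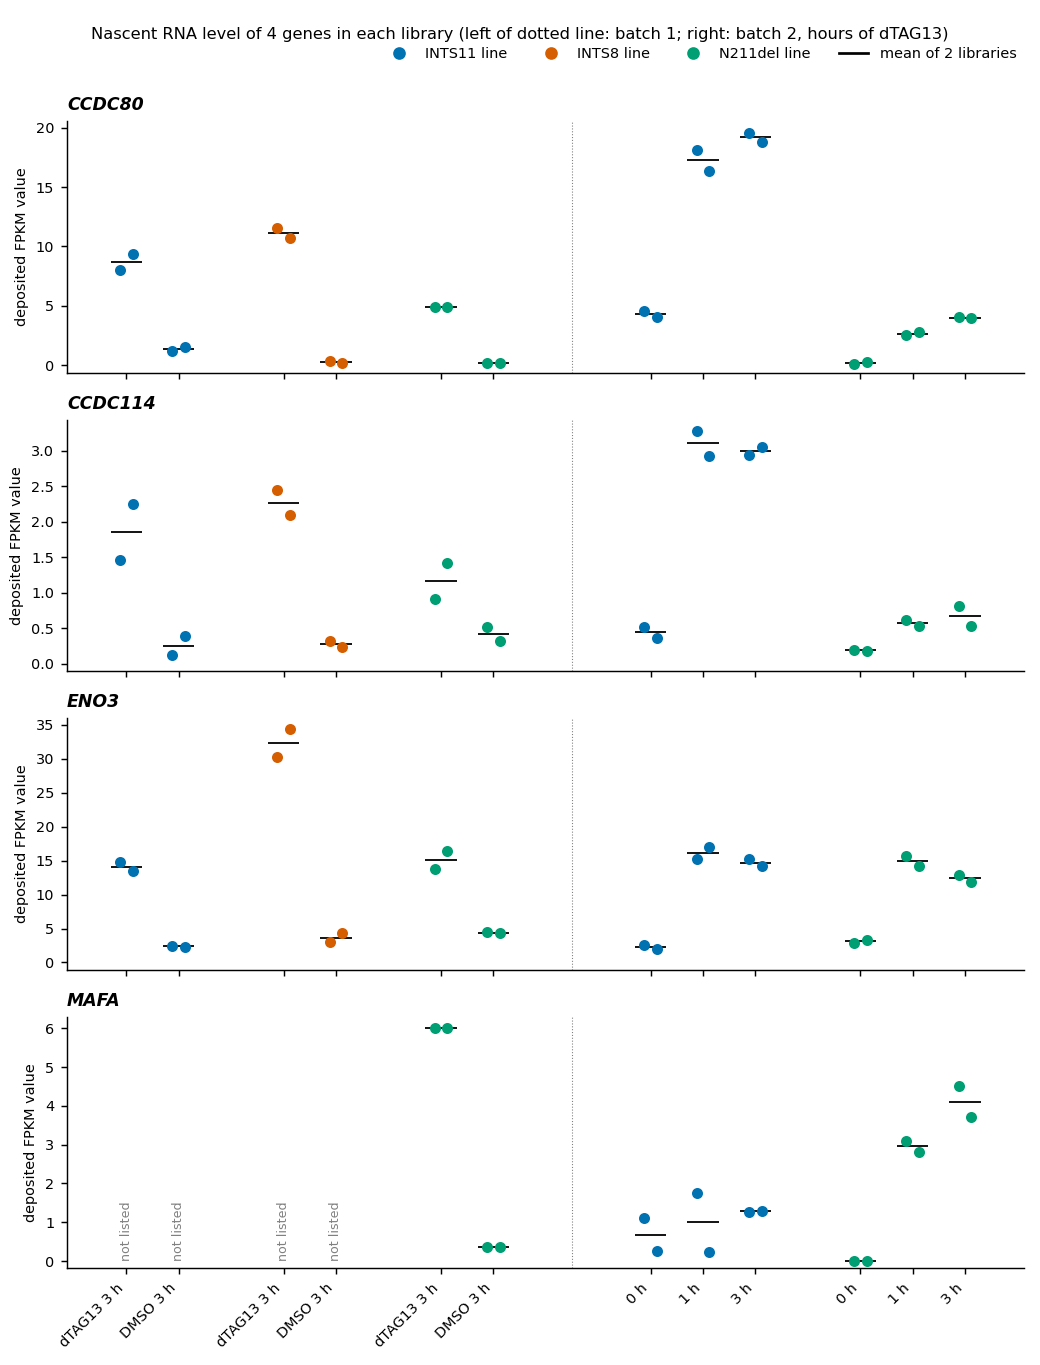
Deposited FPKM value of each gene (y axis, linear, separate scale per gene) in each library (points), with the mean of 2 libraries as a bar; batch 1 is left of the dotted line with dTAG13 before DMSO, and batch 2 is right of it by hours of dTAG13. CCDC80, CCDC114 and ENO3 are above their controls in all 3 lines. In batch 2 MAFA reaches 4.51 at 3 h in N211del cells against at most 1.77 in INTS11 cells. In batch 1 it is at 5.99 in N211del cells on dTAG13 and not listed for the INTS11 and INTS8 lines.

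Counted together, 3 of the 3 listed genes had both dTAG13 libraries above both controls in INTS11 and in INTS8 cells of batch 1, a pattern shown by 33.2% and 46.5% of all genes tested. In N211del cells it was 4 of 4, beside 61.2% of all genes. In batch 2 it was 3 of 4 in INTS11 cells at 1 h (60.1% of all genes) and 4 of 4 at 3 h (48.8%), and 4 of 4 in N211del cells at both 1 h (77.1%) and 3 h (61.1%). By size, the genes with a log2 fold change of 1 or more were 3 of 3 in INTS11 (3.09% of all genes) and INTS8 cells (8.38%) and 4 of 4 in N211del cells (8.8%) of batch 1. In batch 2 they were 3 of 4 at 1 h (6.59%) and 4 of 4 at 3 h (5.81%) in INTS11 cells, and 4 of 4 at 1 h (10.4%) and 3 h (9.12%) in N211del cells, where MAFA is counted against 0 h libraries listed at 0. These counts follow from the choice of the genes and are read no further.

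Large folds were more frequent among genes with low control values as a whole, but part of this contrast is built in. The control mean that splits the genes is also the denominator of the fold. The filter used the mean over all libraries of a batch, treated ones included. A gene with very low control values therefore passed only if it was higher in other libraries. How much of the contrast comes from this was not tested. Of the genes tested with a control mean under 1, 24.1% in INTS11, 43.7% in INTS8 and 39.2% in N211del cells of batch 1 at least doubled on the log2 scale, against 1.53%, 6.46% and 6.92% of the genes with a control mean of 1 or more. In batch 2 the shares at 3 h were 32.04% against 2.64% in INTS11 cells and 35.4% against 5.99% in N211del cells. A 4-fold change was less frequent even among the low genes, at 1.99%, 14.5% and 8.62% in the 3 lines of batch 1. Among all 6579 genes tested, CCDC80 ranked 5, 3 and 2 by log2 fold change in the INTS11, INTS8 and N211del lines, ENO3 ranked 7, 26 and 124, and CCDC114 ranked 6, 51 and 306. High ranks follow from the choice of these genes for large rises and are read no further.

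**Figure D2:**
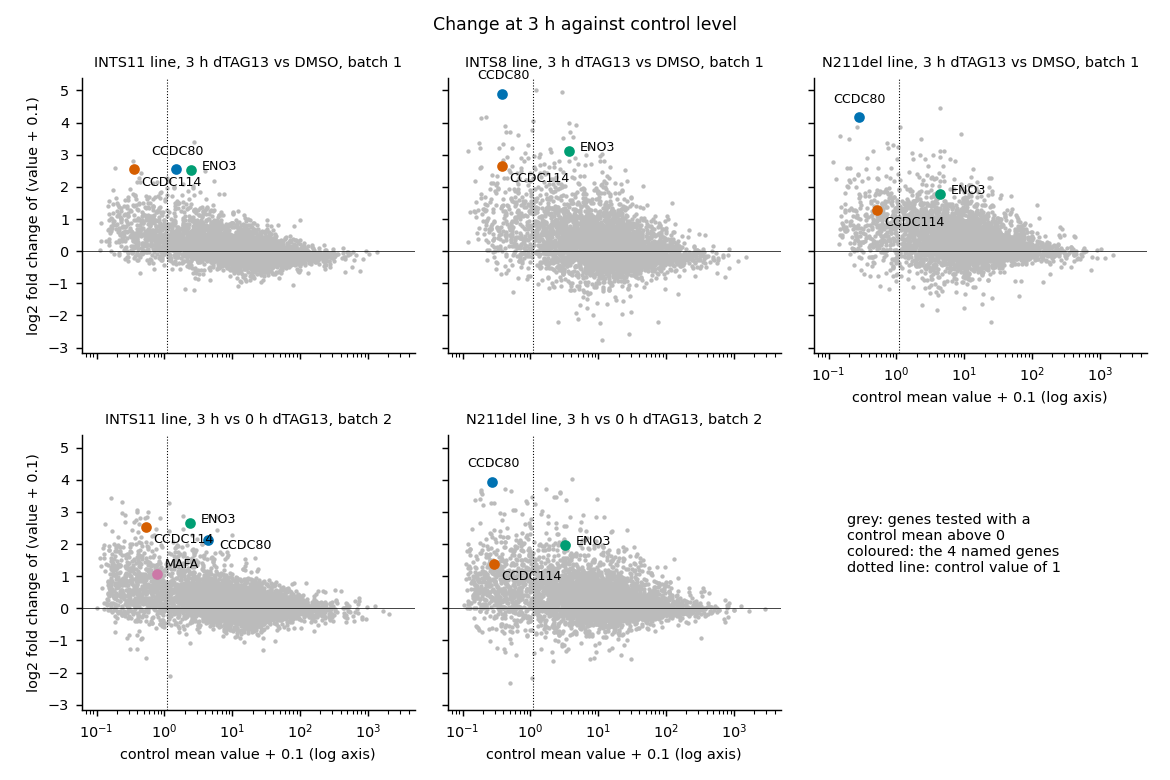
Log2 fold change at 3 h of dTAG13 (y axis) against the control mean plus 0.1 (x axis, log scale) for each gene tested with a control mean above 0; the 4 genes are coloured and the dotted line marks a control value of 1. The cloud widens upwards to the left, and the control mean enters both axes. CCDC80 sits near the top edge of the cloud in INTS8 and N211del cells at 4.89 and 4.17. MAFA is missing where it was listed at 0 or left out of the fit.

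The lines did not rank the genes alike. For CCDC80 the log2 fold change was larger by 2.34 ± 0.22 in INTS8 than in INTS11 cells, and by 1.61 ± 0.22 in N211del than in INTS11 cells. For CCDC114 and ENO3 the N211del line had the smallest change. Its difference from INTS11 cells in batch 1 was -1.25 ± 0.60 for CCDC114 and -0.76 ± 0.19 for ENO3, and in batch 2 at 3 h it was -1.13 ± 0.27 and -0.71 ± 0.17. Between N211del and INTS8 cells, which share the tagged subunit, the differences were -0.73 ± 0.22 for CCDC80, -1.36 ± 0.60 for CCDC114 and -1.35 ± 0.19 for ENO3. These are estimates without a test, and they depend on the constant added to low values. With 1 added in place of 0.1, the CCDC80 difference was 1.23 between INTS8 and INTS11 cells, and between N211del and INTS11 cells it was 0.31 in batch 1 and -0.14 at 1 h of batch 2. The CCDC114 difference in batch 1 was then -0.57 between N211del and INTS11 cells and -0.75 between N211del and INTS8 cells.

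**Figure D3:**
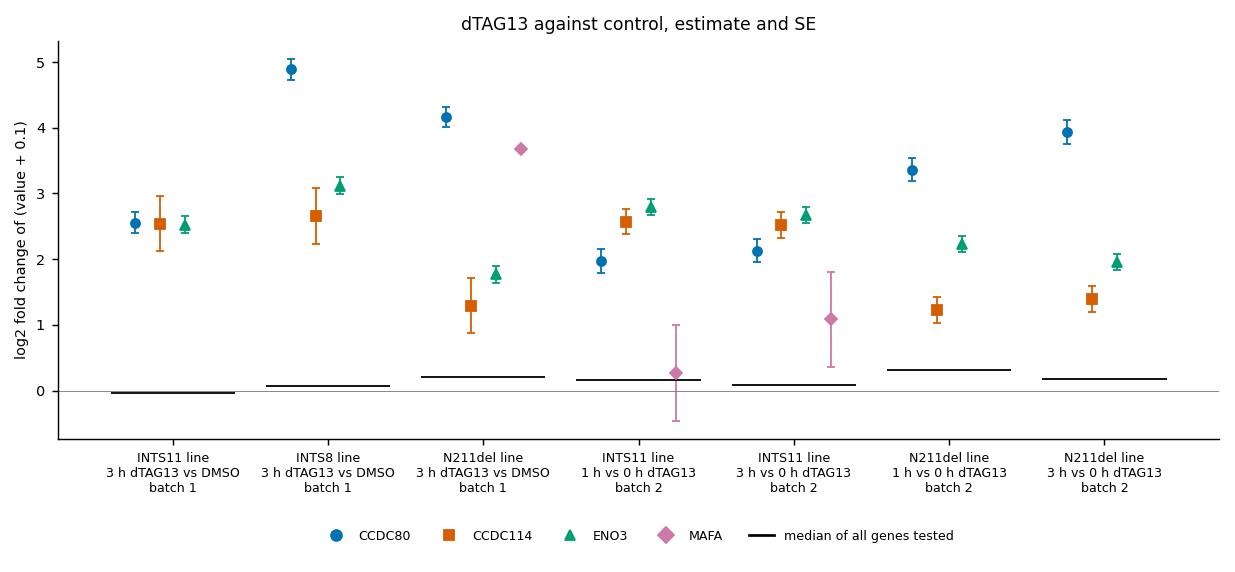
Log2 fold change with its SE (y axis) of the 4 genes in the 7 comparisons of dTAG13 with control (x axis), with the median of all genes tested as a black line. CCDC80 exceeds CCDC114 and ENO3 in INTS8 and N211del cells, while the 3 genes lie together at 2.53 to 2.56 in INTS11 cells of batch 1; the MAFA point of N211del cells in batch 1 has no SE, and those of batch 2 are not drawn because the 0 h libraries are listed at 0.

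For CCDC80, CCDC114 and ENO3, changes between 1 h and 3 h were small beside those of the first hour. The log2 difference of 3 h from 1 h in INTS11 cells was 0.15 ± 0.18 for CCDC80, -0.05 ± 0.19 for CCDC114, -0.13 ± 0.12 for ENO3 and 0.81 ± 0.73 for MAFA, whose change in the first hour was 0.27 ± 0.73. In N211del cells it was 0.58 ± 0.18 for CCDC80, 0.16 ± 0.19 for CCDC114, -0.27 ± 0.12 for ENO3 and 0.46 ± 0.73 for MAFA. Both 3 h libraries lay above both 1 h libraries for 1 of the 4 genes in INTS11 cells, CCDC80 (8.35% of all genes), and for 2 of 4 in N211del cells, CCDC80 and MAFA (8.49%).

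The nearest listed genes around each of the 4 were not used to choose them and could be tested. Up to 3 listed genes on each side in RefSeq order (GRCh38.p14) were taken, 24 in all. The order skips genes that the tables do not list, so 0 to 38 coding genes lie between a neighbour and its gene. The immediate coding neighbour is listed only for EMP3 beside CCDC114 and ZC3H3 beside MAFA. In batch 1, 5 of 20 neighbours tested rose and 4 fell in INTS11 cells (limma, adjusted p under 0.05), against 19.4% and 19.8% of all genes. In INTS8 cells 7 rose and 2 fell (34.6% and 21% of all genes), and in N211del cells 13 rose and none fell (48.5% and 7.1%). After centring the libraries on their medians these became 7 and 4, 6 and 6, and 8 and 5, beside 26.1% and 24.5%, 30.7% and 36.4%, and 26.9% and 35.2% of all genes.

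In batch 2, 10 of 22 neighbours rose and none fell at 1 h in INTS11 cells, against 46% and 9.86% of all genes, and 11 rose and 2 fell at 3 h (36% and 19.3%). In N211del cells 16 rose and 1 fell at 1 h (66% and 4.92%), and 11 rose and 3 fell at 3 h (49.7% and 13.8%). Centred, the INTS11 counts were 7 and 4 at 1 h (29% and 30.3% of all genes) and 9 and 3 at 3 h (31.8% and 28.9%). The centred N211del counts were 6 and 6 at 1 h (29.5% and 36.1%) and 8 and 6 at 3 h (30.9% and 35.1%).

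Single neighbours did rise, mostly around CCDC80 and CCDC114, but several were low on control. In INTS8 cells the DMSO means were 0.538 for BOC, 0.746 for SIDT1, 0.206 for GRIN2D and 0.159 for PLA2G4C. Of all genes tested with a control mean under 1 in that comparison, 43.7% at least doubled. Whether these rises go with the position of the genes was not tested. BOC, a cell surface receptor for hedgehog ligands, is the nearest listed gene on the higher-coordinate side of CCDC80, with 5 coding genes between. It rose in all 7 comparisons, also when centred. Its means were 2.78 in INTS8 cells on dTAG13, against 0.538 on DMSO (log2 fold change 2.18 ± 0.16, limma adjusted p = 1.0e-10), and 1.65 at 3 h in N211del cells of batch 2, against 0.322 at 0 h (2.05 ± 0.12, limma adjusted p = 4.3e-07). In INTS11 cells of batch 1 its log2 fold change was 1.22 ± 0.16, which was smaller by limma's test of the difference than in INTS8 cells (difference 0.97, adjusted p = 0.0026) and than in N211del cells (0.66, adjusted p = 0.022). Both differences are on values that were not centred. SIDT1, further along with 8 coding genes between, also rose in all 7 comparisons, by 0.46 to 1.29 on the log2 scale. When centred it rose in 6 of them. SPICE1, a centriole gene listed between BOC and SIDT1, had log2 fold changes of -0.11 to 0.58 and fell at 3 h in INTS11 cells of batch 2 (limma adjusted p = 0.036), a call lost without replicate 1 of 0 h (limma adjusted p = 0.14) or either 3 h library (0.098 and 0.14). ABHD10 and C3orf52 on the other side had log2 fold changes under 0.4 in size in the 5 comparisons at 3 h. The SIDT1 call in INTS8 cells was lost without replicate 1 of either group (limma adjusted p = 0.19 without the DMSO library, 0.25 without the dTAG13 one).

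Around CCDC114, GRIN2D, a subunit of the NMDA glutamate receptor, rose in all 7 comparisons by 0.88 to 1.88 and in 6 when centred. The selenoprotein gene SELENOW rose in all 7 by 0.26 to 0.67, centred or not. In RefSeq order 4 coding genes lie between GRIN2D and CCDC114, and 12 between SELENOW and CCDC114. PLA2G4C, a phospholipase gene, rose in INTS8 cells (means 0.692 on dTAG13, against 0.159 on DMSO; log2 fold change 1.62 ± 0.23, limma adjusted p = 5.1e-06) and in N211del cells of both batches. In INTS11 cells of batch 1 its log2 fold change was 0.20 ± 0.23 (limma adjusted p = 0.50). EMP3, the membrane protein gene directly beside CCDC114, rose at 3 h in INTS11 cells of batch 2 by 1.57 ± 0.50 (limma adjusted p = 0.023), a call lost without replicate 1 of 0 h (limma adjusted p = 0.11) or without either 3 h library (0.070 and 0.097). The GRIN2D calls in N211del cells of batch 2 were lost without replicate 2 of 1 h (0.083), and at 3 h without replicate 1 of 0 h (0.056) or of 3 h (0.079), and the PLA2G4C call at 1 h without replicate 1 of 0 h (0.062) or replicate 2 of 1 h (0.057).

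Around ENO3, the transporter gene SLC16A13, with 38 coding genes between, rose in all 7 comparisons by 0.69 to 1.04, also when centred. MINK1, a kinase gene on the other side of ENO3, fell in 4 of the 7 and in 6 when centred, among them N211del cells at 3 h of batch 2 (means 12.9 at 3 h, against 17.0 at 0 h; log2 fold change -0.39 ± 0.04, limma adjusted p = 2.7e-05). Beside MAFA, the zinc finger gene ZC3H3 fell in 3 of the 7 and in all 7 when centred, among them INTS11 cells of batch 1 (means 6.18 on dTAG13, against 8.43 on DMSO; -0.44 ± 0.10, limma adjusted p = 0.0014). Leaving out any 1 of the 4 INTS11 libraries of batch 1 ended the MINK1 call there (limma adjusted p up to 0.098). The ZC3H3 call in INTS8 cells ended without replicate 2 of DMSO (0.10) or of dTAG13 (0.11), and that of N211del cells at 3 h without replicate 2 of 0 h (0.079) or replicate 1 of 3 h (0.064). No rise passed the test for MINK1, the nearest listed gene below ENO3 in coordinate, with 6 coding genes between, or for ZC3H3, directly beside MAFA. NLRP1, an inflammasome gene on the other side of ENO3 with 19 coding genes between, rose in N211del cells of batch 1 by 1.00 ± 0.20 (limma adjusted p = 1.6e-04).

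**Figure D4:**
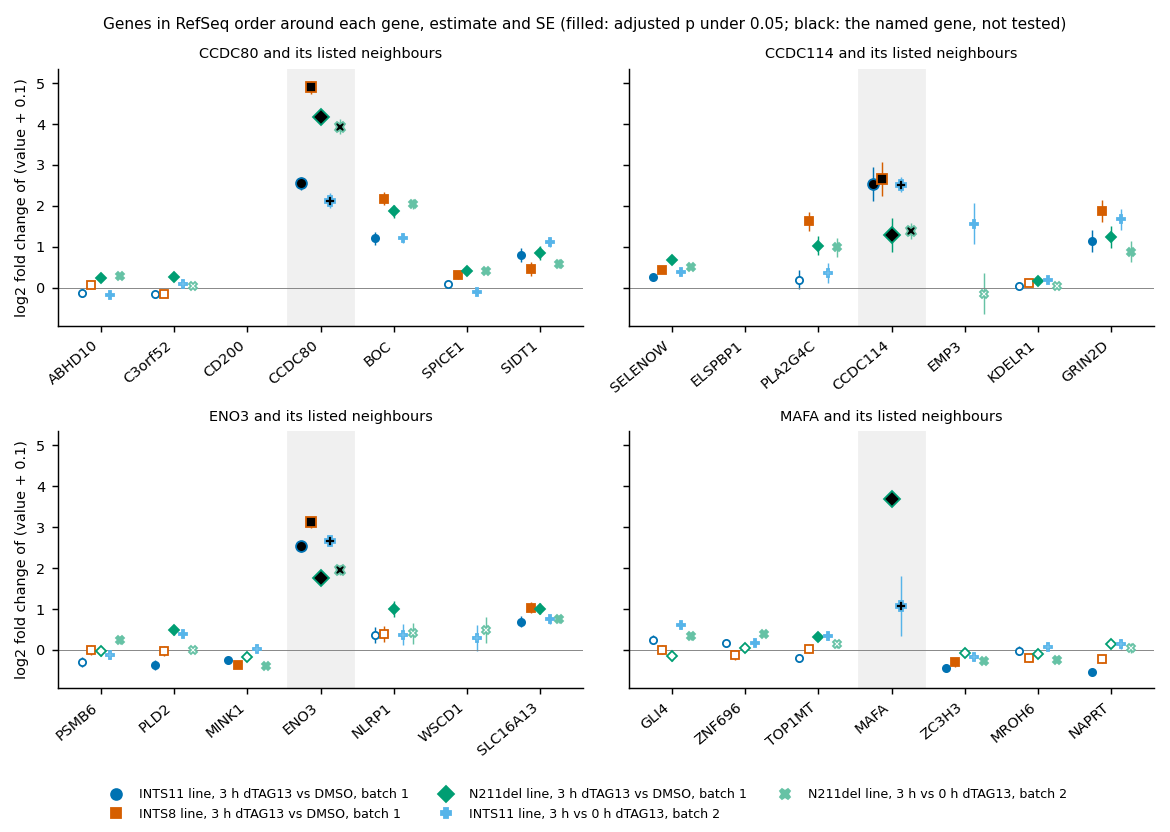
Log2 fold change with its SE (y axis) at 3 h for each of the 4 genes (black centres, shaded) and up to 3 listed neighbours on each side in RefSeq order (x axis), one symbol per line and batch; filled symbols passed an adjusted p of 0.05. BOC, with 5 coding genes between it and CCDC80, lies between 1.22 and 2.18. MINK1, with 6 between it and ENO3, and ZC3H3 directly beside MAFA lie at or below 0.02.

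Genes of the tissues and pathways to which the 4 belong were mixed. Of 18 enolase and glycolysis genes, 8 were listed; ENO1 and ENO2 are not analysed here. None rose and 2 fell in INTS11 cells of batch 1, where 19.4% of all genes rose and 19.8% fell. In INTS8 cells 1 rose and 2 fell (34.6% and 21% of all genes). In N211del cells 4 rose and none fell (48.5% and 7.1%), or 1 and 2 when centred (26.9% and 35.2%). In batch 2, 5 rose at 1 h and 4 at 3 h in INTS11 cells (46% and 36% of all genes), 6 and 4 rose in N211del cells (66% and 49.7%), and none fell. Centred, 2 rose and 1 fell at 1 h in INTS11 cells (29% and 30.3% of all genes), and 2 and 2 at 3 h (31.8% and 28.9%). In N211del cells the centred counts were 0 and 5 at 1 h (29.5% and 36.1%) and 1 and 6 at 3 h (30.9% and 35.1%). The largest rise among them in N211del cells of batch 1 was that of the hexokinase gene HK2, at 0.53. The list's median log2 fold change in batch 1 was -0.10 in INTS11, -0.06 in INTS8 and 0.16 in N211del cells, beside medians of -0.03, 0.06 and 0.21 for all genes.

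Among 23 skeletal muscle genes, 7 were listed and 6 tested in batch 1. There 2 rose and 1 fell in INTS11 cells, beside 19.4% of all genes higher and 19.8% lower. In INTS8 cells 2 rose (34.6% of all genes) and in N211del cells 3 rose (48.5%). Centred, the N211del count was 0 higher and 1 lower (26.9% and 35.2% of all genes). In batch 2, 4 of 7 rose at 1 h (46%) and 3 at 3 h (36%) in INTS11 cells with none lower. In N211del cells 2 rose at 1 h (66%), while 2 rose and 2 fell at 3 h (49.7% and 13.8%). Myoglobin (MB) rose in all 7 comparisons, by 0.55 to 1.39, and in 5 when centred. Its means in INTS11 cells of batch 1 were 1.40 on dTAG13, against 0.477 on DMSO. The MB call in N211del cells of batch 1 was lost without replicate 2 of DMSO (limma adjusted p = 0.074) or of dTAG13 (0.12), and at 3 h of batch 2 without replicate 1 of 0 h (0.062). The tropomyosin gene TPM2 had log2 fold changes of 0.82 to 1.87 and rose in the 4 comparisons of batch 2.

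For MAFA, the comparison genes were the other MAF factors with their partners and a set of beta cell factors. Of 12 MAF family and partner genes, 8 were listed and 6 tested in batch 1. There 0 rose and 0 fell in INTS11 cells (19.4% and 19.8% of all genes). In INTS8 cells 3 rose and 2 fell (34.6% and 21%), and in N211del cells 4 rose and 0 fell (48.5% and 7.1%). At 1 h of batch 2, 5 of 8 rose and 0 fell in INTS11 cells (46% and 9.86%), and 6 rose and 1 fell in N211del cells (66% and 4.92%). At 3 h, 6 of 8 rose in both INTS11 and N211del cells (36% and 49.7% of all genes), and in N211del cells 1 fell. Centred, 5 rose and 1 fell in INTS11 cells at 3 h (31.8% and 28.9% of all genes), and 5 rose and 2 fell in N211del cells (30.9% and 35.1%). MAF itself rose at 3 h in N211del cells (means 2.06 at 3 h, against 0.193 at 0 h; log2 fold change 3.29 ± 0.57, limma adjusted p = 7.6e-04); in INTS11 cells its value was -0.47 ± 0.57 (limma adjusted p = 0.51), and the difference between the lines was 3.75 ± 0.80 (limma adjusted p = 0.0039). The N211del value at 3 h was 2.15 without replicate 1 of 0 h and 4.43 without replicate 2. BACH2, a repressor that pairs with small MAF proteins, rose in 6 of the 7 comparisons by up to 1.12, and the small MAF gene MAFF rose in 5. The BACH2 call at 3 h in INTS11 cells ended without replicate 2 of 0 h (limma adjusted p = 0.086) or either 3 h library (0.075 and 0.052). Of 16 beta cell factors 4 were listed, and PDX1 rose in 4 of the 7 comparisons. In batch 1, 0 of the 4 factors rose in INTS11 cells (19.4% of all genes), and 3 rose in INTS8 (34.6%) and in N211del cells (48.5%). In INTS11 cells of batch 2, 2 rose at 1 h (46%) and 2 at 3 h (36%). In N211del cells of batch 2 all 4 rose at 1 h (66%) and at 3 h (49.7%). Before centring, 0 fell in these comparisons.

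CCDC114's list of 36 motile cilia genes had 10 listed and 9 tested. In batch 1, 3 rose in INTS11 (19.4% of all genes), 4 in INTS8 (34.6%) and 3 in N211del cells (48.5%), with none lower. Centred, this was 4, 2 and 1 (26.1%, 30.7% and 26.9% of all genes), with 2 lower in each of the INTS8 and N211del lines (36.4% and 35.2%). In batch 2, 5 and 4 of 9 rose at 1 h and 3 h in INTS11 cells (46% and 36% of all genes). In N211del cells 8 and 5 rose (66% and 49.7%). Centred, 3 rose and 1 fell at 1 h in INTS11 cells (29% and 30.3% of all genes), and 3 and 0 at 3 h (31.8% and 28.9%). In N211del cells the centred counts were 3 and 1 at 1 h (29.5% and 36.1%) and 2 and 1 at 3 h (30.9% and 35.1%). CCNO, a cyclin family gene needed for multiciliated cells, rose in all 7 comparisons by 0.93 to 1.27 under both scalings, from control means of 15.7 to 32.2. Of CCDC80's 38 extracellular matrix genes, 15 were listed and 12 tested in batch 1. There 1 rose and 1 fell in INTS11 cells (19.4% and 19.8% of all genes). In INTS8 cells 6 rose and 2 fell (34.6% and 21%), and in N211del cells 7 rose and 1 fell (48.5% and 7.1%). Centred, 5 rose and 3 fell in N211del cells (26.9% and 35.2%). In batch 2, 11 of 14 rose at 1 h and 10 at 3 h in INTS11 cells with none lower (46% and 36% of all genes higher). In N211del cells 11 rose and 1 fell at 1 h (66% and 4.92% of all genes), and 8 rose and 2 fell at 3 h (49.7% and 13.8%). Centred, 7 rose and 1 fell at 1 h (29% and 30.3% of all genes) and 8 rose and 2 fell at 3 h (31.8% and 28.9%) in INTS11 cells. In N211del cells 4 rose and 4 fell at each time, beside 29.5% and 36.1% of all genes at 1 h and 30.9% and 35.1% at 3 h. Tenascin C (TNC) rose in all 7 comparisons, by 0.94 to 1.94, also when centred, while agrin (AGRN) fell in 5 of the 7, the INTS11 line of batch 1 (-0.30) among them, and rose in the other two, INTS11 cells of batch 2 at 1 h (0.20) and 3 h (0.25). The AGRN calls in INTS11 and N211del cells of batch 1 were each lost without replicate 2 of DMSO (limma adjusted p = 0.16 and 0.17) or replicate 1 of dTAG13 (0.056 and 0.12).

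The genes whose pattern over the libraries was most like each of the 4 were found by Pearson's r of log2 values centred within a batch, a description in which points share batch and treatment. For CCDC80 over 24 libraries these were NR3C2, the mineralocorticoid receptor gene (r = 0.97), DPP4, a cell surface peptidase gene (0.96), and RASGRF1, a Ras exchange factor gene (0.96). For CCDC114 they were PADI2, C10orf90 and TUT1 (0.97, 0.96 and 0.96), and for ENO3 C1QTNF6, PLAC8 and ZSCAN4 (0.98, 0.97 and 0.97). For MAFA, over 16 libraries, they were CPE, GLRX5 and GADD45G (0.95 each). Among the 4 genes themselves r was 0.87 between CCDC80 and CCDC114, 0.82 between CCDC114 and ENO3, and 0.72 between CCDC80 and ENO3, and MAFA had 0.66 with CCDC80, 0.44 with CCDC114 and 0.71 with ENO3 over its 16 libraries. Many other genes had a higher r. Of 6568 genes, CCDC114 ranked 78 and ENO3 449 for CCDC80, and CCDC114 ranked 367 and CCDC80 908 for ENO3. For MAFA the others ranked 1179 to 3000 of 6569. All 4 were picked for rises in these groups, so r among them is read no further.

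The libraries carried the markers of their labelled tissue. Over the 24 libraries EPCAM lay at 111 to 156, CDH1 at 50.1 to 68.0 and KRT8 at 586 to 1020, and of 12 colorectal epithelial markers 9 were listed, with KRT20 at 0 to 0.126 in the 12 libraries of batch 2. COL1A1, the listed one of 9 fibroblast markers, was at 0 to 0.318 there, and none of 5 blood markers was listed. Whether an unlisted gene was expressed cannot be told here. VIL1, CDX1 and CLDN7 of the epithelial list were not listed either. Total whole-number units ran between 5517093 and 8119822 per library in batch 1 and between 8709205 and 11266583 in batch 2, and levels are not compared between the batches, whose tables were scaled differently.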

How the data were processed

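The deposited tables hold 1 value per gene and library under the heading FPKM, per the file headers; per the submitters' processing notes the tools named are the aligner STAR 2.7.5c, the trimmer Trim Galore 0.6.6, Picard, SAMtools 1.9 and DESeq2, beside the builds hg19 and mm10, with roles not given in the sources used here. The deposited FPKM values of batch 1 can be written as whole numbers divided by a gene length, and those of batch 2 as the same times 1 factor per library. The length was not taken from an annotation. It was inferred for 6828 of 7223 genes as the one that makes all batch 1 values of the gene whole. That 100% of 80748 values were whole (tolerance 0.02) follows from this search and is no separate check. If this reading is right, library size is not scaled out in batch 1, and a change of total RNA or of depth passes into the values. Whether the whole numbers are reads or fragments is not stated, so no count model was used.

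Values were tested with limma 3.58.1 (R 4.3.3) on log2(value + 0.1), 2-sided, each batch fitted over its 12 libraries with 1 mean per group, trend and robust variance, a filter at a batch mean of 0.1, and Benjamini-Hochberg adjustment over all genes (6579 tested in batch 1, 6950 in batch 2). The fit was tested on simulated data. The labels call the 2 libraries of a group replicates without naming separate cultures beyond that, so p-values measure the spread between these samples. Members and gene lists were chosen with earlier results of these data known. Named genes are the 4 members, their listed neighbours, from each list up to 3 called genes of largest absolute change in a comparison, and the 3 closest genes by pattern (Pearson's r of log2 values centred within a batch). A gene that this rule names is not reported here. 7221 of 7223 symbols matched RefSeq. Alternatives were another pseudocount, filter and scaling, each library left out, the libraries of 1 contrast only, and a replicate block.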

Additional observations from a re-analysis of the deposited data

Results flagged for a closer look

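The response to dTAG13 differed between lines for several neighbours of the 4 genes, by limma's test of the difference of log2 fold changes (adjusted p under 0.05, over all genes tested). For INTS8 minus INTS11 cells in batch 1 the difference, with its limma adjusted p, was BOC 0.97 (adjusted p = 0.0026) and PLA2G4C 1.42 (adjusted p = 0.0025). For N211del minus INTS11 cells in batch 1 the difference, with its limma adjusted p, was ABHD10 0.38 (adjusted p = 0.012), C3orf52 0.43 (adjusted p = 0.0028), BOC 0.66 (adjusted p = 0.022), SPICE1 0.31 (adjusted p = 0.034), SELENOW 0.42 (adjusted p = 0.0021), PLA2G4C 0.83 (adjusted p = 0.04), PLD2 0.86 (adjusted p = 0.00088), GLI4 -0.40 (adjusted p = 0.037), TOP1MT 0.51 (adjusted p = 0.0057), ZC3H3 0.38 (adjusted p = 0.032) and NAPRT 0.68 (adjusted p = 0.00066). For N211del minus INTS8 cells in batch 1 the difference, with its limma adjusted p, was C3orf52 0.41 (adjusted p = 0.022). For N211del minus INTS11 cells at 1 h of batch 2 the difference, with its limma adjusted p, was ABHD10 0.27 (adjusted p = 0.019), BOC 0.73 (adjusted p = 0.0057), SPICE1 0.53 (adjusted p = 6.8e-05), SIDT1 -0.47 (adjusted p = 0.039), KDELR1 -0.16 (adjusted p = 0.049), MINK1 -0.22 (adjusted p = 0.013) and ZNF696 0.47 (adjusted p = 0.0022). For N211del minus INTS11 cells at 3 h of batch 2 the difference, with its limma adjusted p, was ABHD10 0.45 (adjusted p = 0.0012), BOC 0.83 (adjusted p = 0.0029), SPICE1 0.52 (adjusted p = 6.1e-05), SIDT1 -0.52 (adjusted p = 0.024), PSMB6 0.38 (adjusted p = 0.029), PLD2 -0.38 (adjusted p = 0.011), MINK1 -0.41 (adjusted p = 0.00036) and MROH6 -0.31 (adjusted p = 0.042). ZNF696 differed by -0.31 for INTS8 minus INTS11 cells in batch 1, where both INTS8 dTAG13 libraries lay below both DMSO libraries and the INTS11 libraries lay the other way; this difference did not pass the test. BOC, ABHD10 and SPICE1 differed between N211del and INTS11 cells in batch 1 and at both times of batch 2, and BOC also between INTS8 and INTS11 cells. The differences in this paragraph are on values that were not centred, so a shift common to all genes is part of them. The median log2 fold change of all genes was -0.03 in INTS11, 0.06 in INTS8 and 0.21 in N211del cells of batch 1. In batch 2 it was 0.16 in INTS11 and 0.31 in N211del cells at 1 h, and 0.08 and 0.18 at 3 h. The share of all genes that differed between lines is not given here. Of the list genes, the difference for N211del minus INTS11 cells at 3 h of batch 2 was 3.75 for MAF (limma adjusted p = 0.0039) and -0.86 for AGRN (limma adjusted p = 6.6e-06), and at 1 h -0.48 for AGRN (limma adjusted p = 2.0e-04). The 4 genes themselves were given no such test, since their levels in these groups were used to pick them. No group has more than 2 libraries, so no single library could be screened as standing apart within its group.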

How the results depend on the processing

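The count of the 4 genes at least doubled, the count with no overlap, and the count of neighbours called stayed within 1.5 times under all alternatives run (77, 35 and 77 of them). Leaving out 1 library gave 3 to 4 genes doubled, against 3 or 4, 3 to 4 genes without overlap, and 7 to 9, 8 to 9 and 9 to 14 neighbours called in the INTS11, INTS8 and N211del lines of batch 1 (9, 9 and 13 with all libraries); in batch 2 it gave 9 to 9 and 9 to 11 in INTS11 cells at 1 h and 3 h (10 and 13), and 12 to 16 and 10 to 12 in N211del cells (17 and 14). The replicate numbers do not pair the samples (correlations of replicate differences between -0.079 and 0.024), and with the replicate block the neighbour counts were 11, 10 and 12 in batch 1, 11 and 12 in INTS11 cells and 17 and 14 in N211del cells of batch 2, with the same counts of genes doubled. Of 287 alternative fold changes of the 4 genes, 51 moved by more than the replicate SD and 2 turned: MAFA in INTS11 cells at 1 h was -0.63 without replicate 2 of 0 h and -0.98 without replicate 1 of 1 h. Of the changes between 1 h and 3 h, CCDC114 in INTS11 cells (-0.05) turned to 0.053 with libraries centred and ran between -0.13 and 0.030 with 1 library left out (turned without replicate 1 of 1 h). MAFA in INTS11 cells ran between -0.43 (without replicate 2 of 1 h) and 2.06 (without replicate 1 of 1 h), and CCDC114 in N211del cells between -0.10 and 0.43 (without replicate 1 or 2 of 3 h). Of the line differences, CCDC114 between INTS8 and INTS11 cells turned to -0.022 centred, -0.47 without replicate 2 of INTS11 DMSO (0.71 without its replicate 1), -0.04 without replicate 2 of INTS8 DMSO and -0.18 without replicate 1 of INTS11 dTAG13, and CCDC80 between N211del and INTS11 cells at 1 h to -0.14 with a pseudocount of 1; the cause was not tested. Of 924 list counts 108 moved. The fewest whole-number units of the 4 genes lay behind MAFA and CCDC114, with 0 to 17 and 3 to 141 per library.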
